A study of Mus musculus with 16 samples.

Results

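At 2889 of 24061 autosomal sites where an H3K4me1 summit was listed in both cell types, the score in 3T3 fibroblasts was at least 1.84 times the score in dendritic cells (12.0% of the paired sites). These are called 3T3-high pairs. A pair is a 3T3 summit and a dendritic cell (DC) summit that are each other's nearest and lie 1000 bp or less apart. Members were chosen by their scores in both lists, so their scores and ratios are described only, and the share of 12.0% is fixed by the rule. The other 21172 pairs are called the remaining pairs. Among them, 2800 pairs had a DC score at least 2.18 times the 3T3 score (11.6% of all pairs) and are called DC-high. The 18372 pairs that were neither are called middle pairs. The ratios 1.84 and 2.18 are 2-fold on either side of the median ratio of all pairs, which was 0.92.

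The study mapped histone marks in unstimulated and stimulated mouse dendritic cells and fibroblasts to list candidate enhancers, in 16 samples, of which 14 were not analysed here. The 3T3 cells, an established mouse fibroblast line, were unstimulated and grown under standard conditions. The dendritic cells, which present antigen to T cells, were also unstimulated. They were differentiated from bone marrow progenitors grown in SCF, IL-3 and IL-6, infected with a retrovirus carrying a hairpin against JmjD2d, a histone demethylase, and selected with histidinol. Differentiation took 4 days in GM-CSF with SCF and then 4 days in GM-CSF alone. Cell type and the hairpin cannot be told apart in this comparison. The 3T3 library was taken as 3T3 from its title, description, growth protocol and list header, although dendritic cells are entered in its cell type field. Both lists came from the same antibody, and each cell type had 1 library. The comparisons therefore have no spread between replicates behind them and carry no test.

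H3K4me1 is a single methyl group on lysine 4 of histone H3. It is laid down at enhancers and on the flanks of active promoters, often before an enhancer is used, and the set of marked sites differs between cell lineages. Enhancers of genes that define a cell type often stand in groups along the chromosome. No annotation or sequence of mm9, the build of the lists, was at hand. Sites are therefore given by position, no gene is assigned to them, and the cell types were not checked against marker genes.

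The 3T3 list held 80558 autosomal summits with a median score of 33, and the DC list held 78214 with a median of 36. The 3T3-high pairs took 3.59% of the 3T3 summits and 3.69% of the DC summits. Of the 3T3 summits, 56452 (70.1%) had no DC summit within 1000 bp and are called 3T3-only. Of the DC summits, 54090 (69.2%) had no 3T3 summit within that distance and are called DC-only. The score is the value deposited for each summit and was read as the height of the signal there. The lists were not scaled to each other and the read depth behind them is unknown, so a site without a summit cannot be called free of the mark.

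The 3T3-high pairs combined a high 3T3 summit with a low DC summit. Their 3T3 scores ran from 29 to 333, with a median of 69 and quartiles of 53 and 94. Their DC scores ran from 14 to 114, with a median of 25 and quartiles of 21 and 33. At the remaining pairs the median scores were 33 in 3T3 and 43 in DC. Within the 3T3 list, 78.5% of the members stood in the top 25% of the scores, against 21.6% of the remaining pairs. Within the DC list, 50.6% of the members stood in the bottom 25%, against 13.5% of the remaining pairs. Both held for 868 members (30.04%), so for most members only the 3T3 or only the DC summit stood at that end of its list. The median ratio was 2.42. There were 490 with a ratio from 1.84 to under 2, 1052 from 2 to under 2.5, 1019 from 2.5 to under 4, and 328 (11.4%) at 4 or more.

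**Figure D1:**
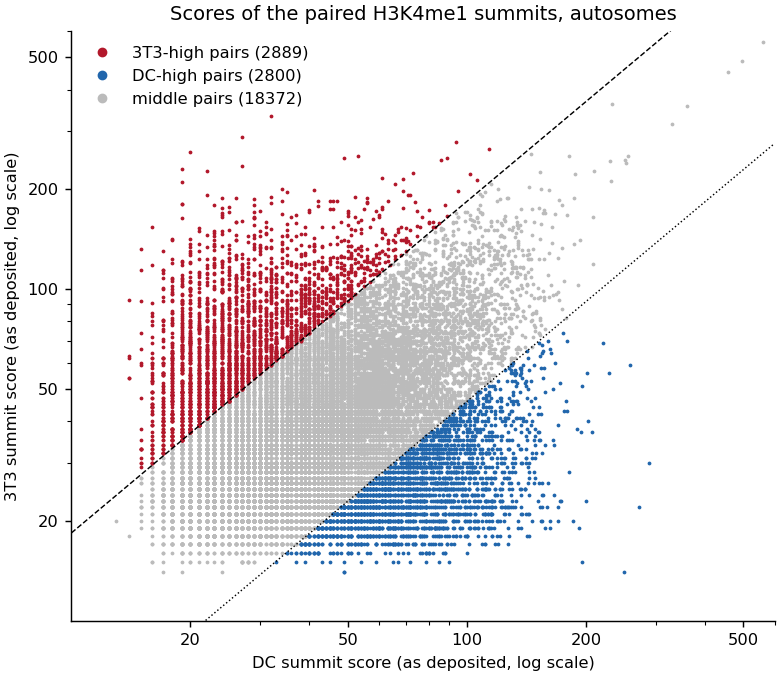
Score of the 3T3 summit (vertical, log scale) against score of the DC summit (horizontal, log scale) for each of the 24061 autosomal pairs. Red points above the dashed line are the 2889 3T3-high pairs, blue points below the dotted line the 2800 DC-high pairs, and grey points the 18372 middle pairs, with no gap at either line.

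The scores were continuous across the threshold. Just inside it, a pair at position 61158195 of chromosome 9 scored 92 in 3T3 and 50 in DC, and 4 pairs on chromosomes 1, 3, 5 and 6 scored 46 in 3T3 and 25 in DC. Just outside it, pairs on chromosomes 3 and 11 scored 57 in 3T3 and 31 in DC, a ratio of 1.839. Further pairs just outside, on chromosomes 5 and 7, scored 68 in 3T3 and 37 in DC, and a pair on chromosome 17 scored 90 in 3T3 and 49 in DC. Scores are whole numbers, so pairs can share a ratio and a change of 1 in a low DC score can move a pair across the line.

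The highest ratio was found on chromosome 6, where the 3T3 summit at 88874248 scored 259 and its DC partner 377 bp away scored 20, a ratio of 12.95. On chromosome 13 the 3T3 summit at 53129884 scored 230 and the DC summit 945 bp away scored 19. Another on that chromosome, at 51428481, had the highest 3T3 score of any member, 333, against a DC score of 32 only 3 bp away. On chromosome 8 the 3T3 summit at 124819914 scored 211 against 19 in DC, and that at 124750683 scored 287 against 27 in DC. The 10 members with the highest ratios lay on chromosomes 6, 8, 13 and 17, with 4 of them on chromosome 8. Their DC scores of 15 to 32 lay below the median of the DC list. A high 3T3 score did not require a low DC score. The pair at 129191107 of chromosome 8 scored 265 in 3T3 and 114 in DC, the highest DC score of any member.

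The 2 summits of a 3T3-high pair lay somewhat farther apart than those of the remaining pairs as a whole, and closer than those of DC-high pairs. The median distance was 219 bp for 3T3-high pairs, 269 bp for DC-high pairs and 178 bp for the remaining pairs. At most 100 bp separated the summits at 31.4% of 3T3-high pairs (29.7 to 33.1) and at 35.1% of the remaining pairs (34.5 to 35.8). The distance moved with the lower score of the pair. Where that score was under 20 the median was 257.5 bp for 3T3-high pairs and 255.5 bp for remaining pairs. Where it was from 30 to under 40 the median was 204 bp for 3T3-high pairs and 167 bp for remaining pairs. At 60 or more the order was the opposite, with 93 bp for 77 3T3-high pairs and 126 bp for remaining pairs.

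The summits of each pair were also set beside the other summits within 5 kb. The scores that chose the members enter these values, which therefore describe the members and support nothing further. The 3T3 summit of the pair was the highest 3T3 summit within 5 kb at 91.97% of members, against 74.2% of the remaining pairs. The DC summit was the highest DC summit within 5 kb at 63.8% of members, against 77.4% of the remaining pairs. The ratio was taken again from the highest summit of each list within 5 kb. It was 1.84 or more at 2200 members (76.2%, 74.6 to 77.7) and at 527 of the remaining pairs (2.49%). It was below 1, so that the highest DC summit exceeded the highest 3T3 summit, at 154 members (5.33%).

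The 3T3-high pairs stood next to each other more often than the remaining pairs stood next to them. The nearest other pair was 3T3-high for 574 of the 2889 members (19.9%, 18.4 to 21.4), for 8.46% of DC-high pairs (7.46 to 9.56) and for 10.2% of the remaining pairs (9.81 to 10.6). The nearest other pair was DC-high for 8.41% of members (7.42 to 9.48) and 11.9% of the remaining pairs. The DC-high pairs had the same arrangement among themselves, with a DC-high pair nearest in 18.6% of cases (17.2 to 20.1). The intervals cover counting error only and take pairs as independent, which neighbours are not. The scores of neighbouring pairs also come from the same 2 libraries, and no second library was at hand.

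The excess did not depend on very close pairs. With the nearest other pair within 5 kb, it was 3T3-high for 16.8% of members and 7.89% of the remaining pairs. From 5 to 20 kb the shares were 21.0% of members and 11.7% of remaining pairs, and from 20 to 50 kb 20.9% of members and 10.2% of remaining pairs. From 50 to 100 kb they were 18.7% of members and 10.8% of remaining pairs. Beyond 100 kb they were 17.0% (11.1 to 24.5) of 135 members and 9.001% (7.22 to 11.1) of 911 remaining pairs. Counted by order along the chromosome, the next pair was 3T3-high after 18.3% of members and 11.2% of the remaining pairs. The fifth pair along was 3T3-high after 15.2% of members and 11.6% of remaining pairs. The tenth was 3T3-high after 13.03% of members (11.8 to 14.3) and 11.9% of remaining pairs (11.5 to 12.3), with overlapping intervals. At 20 pairs along the shares were 13.4% for members (12.2 to 14.7) and 11.8% for remaining pairs (11.4 to 12.3). At 50 pairs along they were 13.6% for members (12.36 to 14.95) and 11.8% for remaining pairs (11.35 to 12.24), and these intervals did not overlap. These counts pool autosomes whose 3T3-high shares ran from 6.84 to 22.8%. Unequal shares alone give members an excess at any order, and that level was not computed. The values at 10 to 50 pairs along therefore do not show how far clustering reaches.

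Chained while the next member lay 50 kb or less away, 1094 members (37.9%, 36.1 to 39.7) fell into 449 clusters of at least 2. Of these clusters, 129 held 3 or more members, 15 held 5 or more, and the biggest held 7. The DC-high pairs formed 444 clusters of at least 2, 106 of at least 3 and 7 of at least 5, the biggest with 6. Clusters of at least 2 held 36.8% of the DC-high pairs (35.0 to 38.6), close to the share of members. Most members, however, had no other member within 50 kb. Uninterrupted runs, in which every pair was 3T3-high, numbered 415 of at least 2 pairs and held 32.6% of the members. Of these runs 91 had 3 or more pairs, 3 had 5 or more, and the longest had 6. Runs of at least 2 DC-high pairs numbered 383 and held 30.8% of the DC-high pairs. With 12.0% of all pairs being members, some clusters and runs form from number and spacing alone, and that level was not computed.

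The cluster with the most members lay at chr13:32893271-33056446 in mm9. Its 7 members scored 51 to 141 in 3T3 and 22 to 46 in DC, with ratios of 1.94 to 5.42. They alternated with 5 other pairs, of which 1 was DC-high with scores of 46 in 3T3 and 107 in DC, and with 6 3T3-only and 7 DC-only summits. Sites favouring each cell type were thus interspersed in this cluster. A cluster at chr13:51392319-51486540 held 6 members among 7 pairs and contained the member with the highest 3T3 score. Its first 4 pairs, within 36163 bp, were all members, with 3T3 scores of 111, 124, 246 and 333 and DC scores of 45, 47, 86 and 32. No 3T3-only summit and 4 DC-only summits lay among these 4 pairs.

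**Figure D2:**
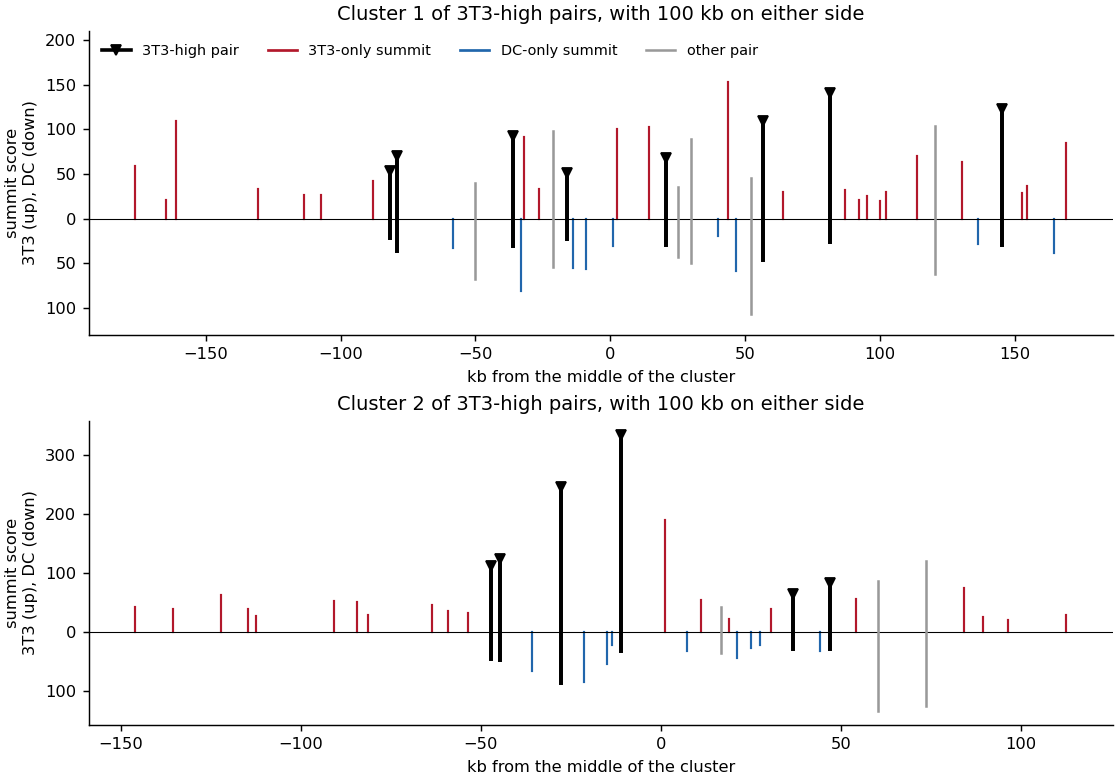
Summit scores along the 2 clusters named first (cluster 1 with 7 members above, cluster 2 with 6 below), by distance in kb from the middle of the cluster. Lines go up for the 3T3 score and down for the DC score; black lines with a triangle are 3T3-high pairs, grey lines other pairs, red lines 3T3-only and blue lines DC-only summits, which lie between the members in both clusters.

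The other clusters of 6 differed in what surrounded them. At chr19:22992570-23103719, 6 of 7 pairs were members, with 3T3 scores of 52 to 144 and DC scores of 20 to 47, among 9 3T3-only summits and 1 DC-only summit. At chr8:124097235-124220235, 6 of 9 pairs were members, with 3T3 scores of 65 to 177 and DC scores of 21 to 72, among 9 3T3-only and 6 DC-only summits. At chr17:32160780-32254472, 6 of 8 pairs were members, with 3T3 scores of 76 to 136 and DC scores of 19 to 59, among 4 summits restricted to each cell type. The 3 longest runs spanned longer stretches rich in 3T3-only summits. The 6 consecutive members at chr9:63651059-63931514 had 25 3T3-only and 15 DC-only summits among them. The 5 at chr8:81153552-81686895 had 35 3T3-only and 7 DC-only summits, and the 5 at chr16:29735945-30008628 had 21 3T3-only and 3 DC-only summits.

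Beyond 5 kb, 3T3-high pairs had more 3T3-only and fewer DC-only summits around them than the remaining pairs. Within 20 kb there were 2.12 3T3-only summits per 3T3-high pair (2.07 to 2.18), 1.84 per DC-high pair (1.79 to 1.89) and 1.70 per remaining pair (1.68 to 1.71). DC-only summits numbered 1.87 per 3T3-high pair (1.82 to 1.92), 2.47 per DC-high pair (2.41 to 2.52) and 2.12 per remaining pair (2.10 to 2.14). Within 50 kb there were 5.48 3T3-only summits per 3T3-high pair, 4.35 per DC-high pair and 4.23 per remaining pair. DC-only summits within 50 kb numbered 4.69 per 3T3-high pair, 6.20 per DC-high pair and 5.29 per remaining pair. These are exact Poisson intervals of the sums. A summit near several pairs was counted for each, so the intervals are too narrow by an amount that was not computed.

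The pattern had the opposite direction close to the pair. As given above, the 3T3 summit of a member was the highest of its list within 5 kb at 91.97%, and the DC summit at 63.8%. How far the scores that chose the members enter the close counts was not tested. Within 2 kb there were 0.0211 3T3-only summits per 3T3-high pair, 0.0518 per DC-high pair and 0.0378 per remaining pair. DC-only summits within 2 kb numbered 0.0585 per 3T3-high pair, 0.0254 per DC-high pair and 0.0445 per remaining pair. The 2 kb counts were small, 61 3T3-only and 169 DC-only summits for all 3T3-high pairs. From 2 to 5 kb the 3T3-only numbers were close, 0.291 per 3T3-high pair (0.271 to 0.311) and 0.305 per remaining pair (0.298 to 0.313). From 5 to 10 kb there were 0.628 3T3-only summits per 3T3-high pair and 0.470 per remaining pair. DC-only summits in that band numbered 0.519 per 3T3-high pair and 0.608 per remaining pair. The difference in 3T3-only density was still present from 100 to 200 kb, at 0.467 per 10 kb around 3T3-high pairs and 0.389 around remaining pairs. Around DC-high pairs, DC-only summits had their highest density, 0.752 per 10 kb, in the band from 5 to 10 kb.

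**Figure D3:**
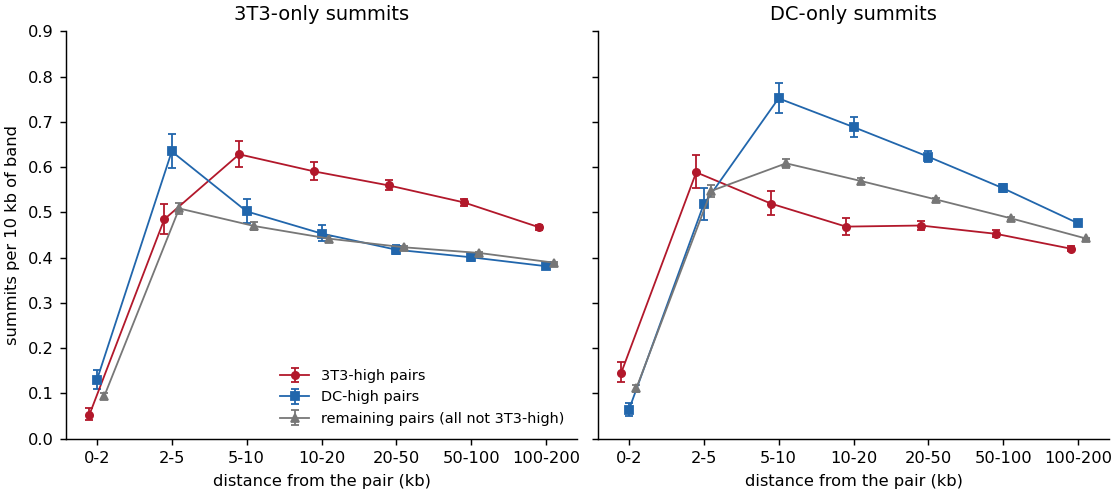
Cell-type-only summits per 10 kb (vertical) in 7 bands of distance from the pair in kb (horizontal), for 3T3-only (left) and DC-only summits (right). Points are 3T3-high (red), DC-high (blue) and remaining pairs (grey) with exact Poisson 95% intervals; from 5 kb outwards the red points lie above the grey ones on the left and below them on the right.

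The single nearest cell-type-only summit showed little of this. It was 3T3-only for 49.5% of 3T3-high pairs (47.7 to 51.4), 49.6% of DC-high pairs (47.7 to 51.4) and 46.5% of remaining pairs (45.9 to 47.2). Among summits at least 5 kb away, the nearest was 3T3-only for 56.1% of 3T3-high pairs (54.3 to 57.9), 38.2% of DC-high pairs and 43.3% of remaining pairs. The median distance of that 3T3-only summit was 9995 bp for 3T3-high pairs and 12560 bp for remaining pairs. The neighbouring summits themselves differed little in median height. The 3T3-only summits within 50 kb of a 3T3-high pair had a median score of 35, against 33 near a remaining pair, and the DC-only summits had a median of 36 near a 3T3-high pair and 35 near a remaining pair. The upper quartile of the 3T3-only summits differed more, at 57 near a 3T3-high pair and 50 near a remaining pair. For DC-only summits it was 56 near a 3T3-high pair and 55 near a remaining pair.

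Surroundings of a single cell type were uncommon. Within 50 kb, 3T3-only summits outnumbered DC-only summits at 1495 members (51.7%, 49.9 to 53.6), at 26.6% of DC-high pairs and at 32.6% of remaining pairs (31.9 to 33.2). DC-only summits outnumbered 3T3-only summits at 1090 members (37.7%) and at 56.8% of remaining pairs. Only 176 members (6.09%, 5.25 to 7.03) had 3T3-only but no DC-only summit within 50 kb, against 2.90% of remaining pairs. The reverse, DC-only but no 3T3-only summit, was found at 43 members (1.49%) and 5.10% of remaining pairs.

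Single members spanned this range. The pair at 43127994 of chromosome 13, with scores of 81 in 3T3 and 35 in DC, had 15 3T3-only and no DC-only summit within 50 kb. The pair at 64199044 of chromosome 17, with scores of 33 in 3T3 and 17 in DC, also had 15 3T3-only summits, and 3 DC-only ones. At the other end, the pair at 123009738 of chromosome 8 scored 134 in 3T3 and 31 in DC but had 7 3T3-only and 15 DC-only summits within 50 kb. At 167692160 of chromosome 2 a pair with scores of 165 in 3T3 and 24 in DC had 2 3T3-only and 14 DC-only summits around it. The ratio of a pair thus did not fix which cell type's summits surrounded it.

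The numbers of cell-type-only summits changed by degrees with the ratio of the pair. The number of 3T3-only summits within 50 kb was lowest, 3.96 per pair, at ratios from 0.46 to 0.70. It was 4.23 from 0.92 to 1.2, 4.66 from 1.2 to 1.84, 5.18 from 1.84 to 2.5, 5.67 from 2.5 to 4, and 6.28 (6.02 to 6.56) at 4 or more. DC-only summits numbered 6.20 per pair in the lowest class, 4.88 from 1.2 to 1.84, 4.68 from 1.84 to 2.5 and 4.61 from 2.5 to 4. In the 328 members at 4 or more they numbered 5.04 (4.80 to 5.29), above the class before it. The share with a 3T3-high nearest pair changed less evenly, rising most into the class from 1.84 to 2.5 and into that at 4 or more. It was 8.46% in the lowest class, 10.85% from 0.92 to 1.2 and 12.7% (11.7 to 13.7) from 1.2 to 1.84. It was 18.7% (16.8 to 20.7) from 1.84 to 2.5, 19.0% from 2.5 to 4 and 28.0% (23.3 to 33.3) at 4 or more. The classes are wide and cannot place a step at 1.84 or at 4.

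**Figure D4:**
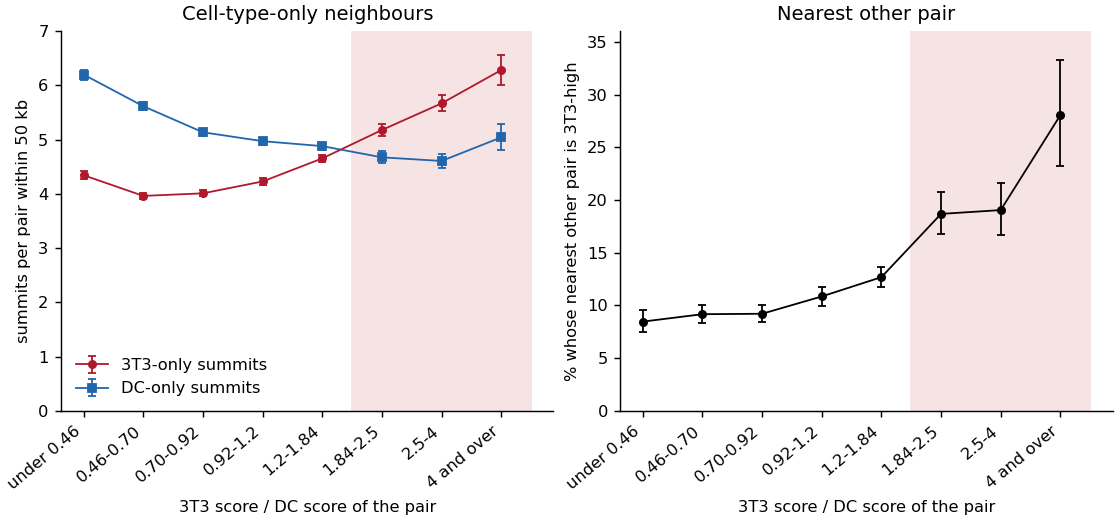
Cell-type-only summits per pair within 50 kb (left) and percent of pairs whose nearest other pair is 3T3-high (right), by the ratio of 3T3 to DC score of the pair in 8 classes, with exact 95% intervals. The shaded classes are the 3T3-high pairs; 3T3-only numbers (red) run from 3.96 to 6.28, and DC-only numbers (blue) from 6.20 down to 4.61 and then 5.04.

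Pairs of like score were also set side by side, since members had high 3T3 and low DC scores. At 3T3 scores of 95 or more, 3T3-only summits within 50 kb numbered 6.26 (6.07 to 6.45) at 707 members and 5.60 (5.42 to 5.78) at 685 remaining pairs. DC-only summits there numbered 5.04 at members (4.88 to 5.21) and 5.50 at remaining pairs (5.33 to 5.68). The nearest other pair was 3T3-high for 24.5% of these members and 14.6% of these remaining pairs. At 3T3 scores from 29 to under 50 there were 4.71 3T3-only summits at members and 4.16 at remaining pairs, and 4.51 DC-only summits at members and 5.26 at remaining pairs. The nearest-pair share was 12.7% of those members (10.1 to 15.8) and 9.55% of those remaining pairs (8.94 to 10.2). At the same 3T3 score the rule gives members the lower DC scores, so these comparisons cannot separate the ratio from the DC score. Scores were also not matched within a class. The class of 95 or more is open, with 3T3 scores up to 333 at members and 555 at remaining pairs. At like DC scores the difference in 3T3-only summits was wider. It was 5.18 for members against 4.13 for remaining pairs with a DC score under 20, and 5.88 against 4.34 at 33 or more. At the same DC score, however, the rule gives members the higher 3T3 scores. Among remaining pairs, too, 3T3-only numbers rose with the 3T3 score, so this comparison cannot separate the ratio from that score. The class of 33 or more is open, with DC scores up to 114 at members and 561 at remaining pairs. DC-only summits numbered 4.43 at members and 4.685 at remaining pairs with a DC score under 20, with overlapping intervals. They numbered 4.63 at members and 4.69 at remaining pairs with DC scores from 20 to under 25, and 4.55 at members and 4.72 at remaining pairs from 25 to under 33, again with overlapping intervals. At DC scores of 33 or more they numbered 5.09 at members and 5.53 at remaining pairs.

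The 3T3-high pairs were unevenly spread over the 19 autosomes. On chromosome 8, 319 of 1400 pairs were 3T3-high (22.8%, 20.6 to 25.1), against 11.3% on the other autosomes, and this chromosome held 11.0% of all members. Chromosome 13 followed with 17.6% (15.6 to 19.9), chromosome 6 with 16.5%, chromosome 19 with 15.8% and chromosome 17 with 14.7%. The lowest shares were found on chromosome 4 (6.84%, 5.54 to 8.33), chromosome 1 (6.92%), chromosome 7 (7.27%) and chromosome 12 (8.47%). The share of DC-high pairs was 7.86% on chromosome 8 and 15.3, 15.1, 15.2 and 17.8% on chromosomes 4, 1, 7 and 12.

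**Figure D5:**
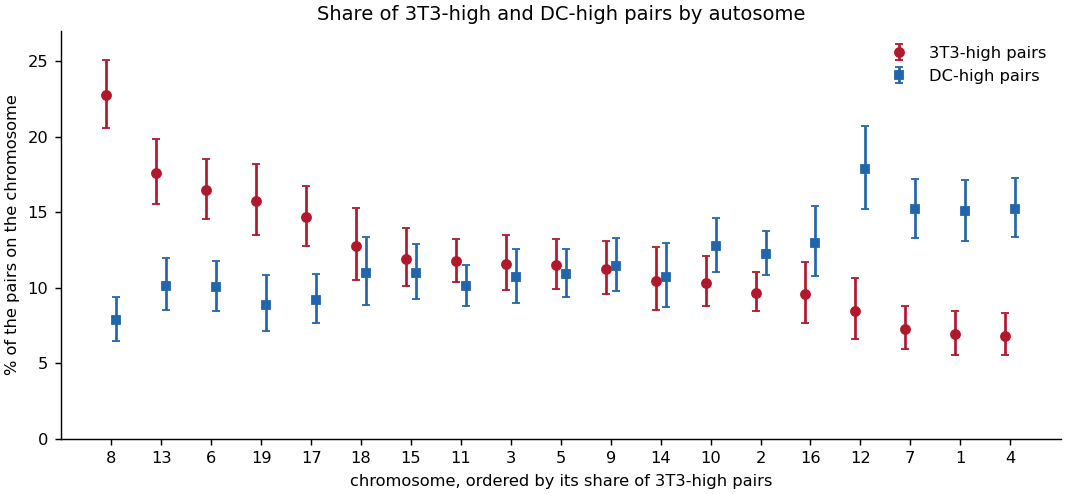
Percent of the pairs on each autosome that are 3T3-high (red) or DC-high (blue), with exact 95% binomial intervals and chromosomes ordered by the red values. The 3T3-high share runs from 22.8% on chromosome 8 to 6.84% on chromosome 4, and it is above the DC-high share on 10 of the 19 autosomes.

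The balance of each whole chromosome moved with these shares. The median ratio of all pairs was 1.27 on chromosome 8 and 1.05 on chromosome 13, against 0.793, 0.792, 0.783 and 0.750 on chromosomes 4, 1, 7 and 12. The number of 3T3 summits over that of DC summits was 1.52 on chromosome 8 and 1.24 on chromosome 13, and 0.898, 0.857, 0.827 and 0.738 on those 4. On chromosomes 19 and 17 the 3T3-high share was 15.8 and 14.7%. The median ratio of all pairs there was 1.03 and 1.02, above the 0.92 of all autosomes. The number of 3T3 summits per DC summit, however, was 1.03 and 1.06. Taking each ratio relative to the median of its own chromosome, with the line at 2, left 2727 3T3-high pairs. On chromosome 8 they then made up 9.64% (8.15 to 11.3) of the pairs, against 11.4% on the other autosomes. Division by the chromosome's own median takes out its shift by construction, so the loss of the excess shows nothing further. Why the share fell below that of the other autosomes was not tested. Members with higher ratios were not more often on chromosome 8, which held 11.5% of those from 1.84 to 2.5, 10.1% of those from 2.5 to 4 and 11.9% of those at 4 or more. Copy number of the chromosomes in the 2 kinds of cell and a difference in the mark cannot be told apart here, since input DNA was not analysed.

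The shares also varied along the chromosomes. In the 376 windows of 5 Mb with at least 20 pairs, 0 to 31.8% of the pairs were 3T3-high, with a median of 10.7%. The interval lay wholly above the share of all pairs in 31 windows and wholly below it in 23. Of the 21 such windows on chromosome 8, 17 lay above the share of all pairs, and 11 did so with their whole interval. The window from 125000001 to 130000000 of chromosome 8 held 43 3T3-high pairs among 139 (30.9%, 23.4 to 39.3). Chromosome 13 was divided. Up to 60 Mb, 181 of 794 pairs were 3T3-high (22.8%, 19.9 to 25.9), and beyond it 38 of 448 (8.48%, 6.07 to 11.5). Both mapped clusters of chromosome 13 and 3 of the 10 highest ratios lay in the first of these stretches, and the limit of 60 Mb was chosen with the values known.

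Clustering and neighbours were also compared within each autosome. The share with a 3T3-high nearest pair was higher for members than for remaining pairs on 18 of the 19, with chromosome 15 as the exception, at 11.4% for members and 12.1% for remaining pairs. On chromosome 8 it was 32.6% for members and 18.4% for remaining pairs. The number of 3T3-only summits within 50 kb was higher for members on all 19 autosomes, by 0.317 to 1.61 per pair. The number of DC-only summits was lower for members on 18 of the 19, and on chromosome 15 it was 5.07 for members and 4.97 for remaining pairs. These differences were thus present within chromosomes as well as across them, and 1 library per cell type leaves their spread between cultures unknown. Comparison within a chromosome leaves differences between its stretches in place, such as those of chromosome 13. A comparison within stretches was not made, and their copy number was not tested.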

How the data were processed

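H3K4me1 ChIP-seq of unstimulated 3T3 and unstimulated dendritic cells was used, 1 library each. Per the labels' protocols, DNA from fixed nuclei was sheared to about 300 bp, amplified for 18 cycles and read for 36 bp. The submitters' processing notes name Bowtie, MACS 1.4 and mm9. Calling used, per the file headers, a p of 1e-04, a shift of 150 bp, no model and no local background. The authors deposited summit positions with a whole-number score, a signal with no recorded scaling that the headers do not name. Positions are printed from 1. Summits were paired and counted in Python 3.11.15 with numpy 2.4.6, scipy 1.17.1 and pandas 2.3.3, and the counting was tested on simulated data. Shares carry exact Clopper-Pearson and sums exact Poisson intervals at 95%, for counting error only. The sources used here give no depth. Named regions follow fixed rules (highest ratios, highest 3T3 scores, nearest to the threshold, most members, longest runs, most neighbours), with ties going to the higher 3T3 score. The pairs, rules and comparisons were chosen with earlier results of these data known. Genes and sequences were not used here for want of mm9.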

Additional observations from a re-analysis of the deposited data

How the results depend on the processing

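The number of 3T3-high pairs was 1549 of 13987 with pairs at most 250 bp apart. It was 4743 of 24061 at a ratio of 1.5 and 1347 of 24061 at 2.5. Among the top-scoring summits of each list, taken in equal number, it was 565 of 8850. The share of members with a 3T3-high nearest pair was then 17.3, 27.1, 10.9 and 12.04%. Among the remaining pairs of the same settings it was 9.98, 17.04, 4.94 and 5.88%. With ratios relative to the chromosome's median it was 17.6% of members and 9.83% of remaining pairs. Without chromosome 8 it was 18.3% of members and 9.77% of remaining pairs. The 3T3-only number within 20 kb was 2.03 at 1.5, 2.24 at 2.5, 1.497 with top-scoring summits and 1.72 with pairs up to 2000 bp apart, where fewer summits are cell-type-only. DC-only numbers were 1.23 with top-scoring summits, 1.42 at 2000 bp and 1.81 without the inner 2000 bp. Within 10, 50 and 100 kb there were 0.940, 5.48 and 10.7 3T3-only and 0.931, 4.69 and 9.22 DC-only summits. The nearest cell-type-only summit at least 5 kb away was 3T3-only for 56.1%. The chromosome 8 share was 37.7% at 1.5, 10.1% at 2.5 and 16.4% with top-scoring summits. On the other autosomes it was 18.6, 5.32 and 5.68%. Relative to the chromosome's median the chromosome 8 share was 9.64%, and its difference from the other autosomes was reversed, at -1.795 percentage points. That centring takes out the shift of the chromosome by construction, and the reversal beyond it was not tested. Ratios from the highest summits within 5 kb, a setting chosen after seeing the data, gave 29.7% for the nearest pair, 2.30 3T3-only and 1.70 DC-only summits and 60.25% for the nearest cell-type-only summit. Close pairs can then share a summit, which raises the nearest-pair share by construction. In every setting run, members kept a higher nearest-pair share, more 3T3-only and fewer DC-only summits than remaining pairs. The nearest-pair difference was 21.8 percentage points with the highest summits within 5 kb, and 5.97 to 10.1 in the other settings. No paired analysis was possible because each cell type had 1 library and no replicate could be left out. Unknown depth limits what a missing summit shows.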

Other observations

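On the X chromosome, which the autosomal rule leaves out, 10 of 315 pairs (3.17%, 1.53 to 5.76) had a 3T3 score at least 1.84 times the DC score, below the share on each of the 19 autosomes.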
